A study of Mus musculus with 4 samples.

Results

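The genes described here are 9 mouse genes whose products sense nucleic acids in the cytosol or belong to the p200 (PYHIN) family: Zbp1, Ifih1, Dhx58, Mavs, Eif2ak2, Aim2, Ifi203, Ifi204 and Ifi205. They were listed by symbol, with earlier results of these data known, among the 22907 genes named on the array. A probe was matched to 8 of the 9, with 11 probes in all, and Ifi203, 1 gene, had no matched probe and has no value here. The RNA came from RAW264.7, a mouse macrophage-like cell line, 2 days after transfection, and the arrays were Agilent whole-genome arrays read in 1 colour. The 4 groups, of 1 array each, were cells with a pool of siRNAs against Ruvbl2 given LPS, the same siRNA given DMSO, cells with a non-targeting control siRNA given LPS, and the control siRNA given DMSO. All cells were thus transfected and carried some siRNA, a short double-stranded RNA. LPS (lipopolysaccharide), from the outer membrane of Gram-negative bacteria, activates macrophages through Toll-like receptor 4, and DMSO is a solvent. RUVBL2 is an ATPase that pairs with RUVBL1 in complexes that remodel chromatin or fold proteins. How much LPS was used, and for how long, is not stated in the labels, which also do not say whether these cells were transfected by electroporation or with a lipid reagent.

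Cells detect foreign or misplaced nucleic acids by proteins that bind them in the cytosol. IFIH1 (MDA5) and RIG-I bind double-stranded RNA and signal through MAVS, an adaptor on the mitochondrial outer membrane, to the transcription factors that switch on type I interferon genes, while DHX58 (LGP2) modulates both receptors. AIM2 binds double-stranded DNA and assembles an inflammasome, ZBP1 binds Z-form nucleic acids and can start RIPK3-dependent cell death, and EIF2AK2 (PKR) halts translation when it meets double-stranded RNA. Most of these genes are themselves interferon-inducible, and macrophages that sense LPS through the adaptor TRIF make interferon beta. Many interferon-inducible genes carry the interferon-stimulated response element (ISRE) in their promoters.

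Promoters from the RefSeq table (build GRCm38.p6, 250 bases before to 50 bases after the transcript start, on the gene's strand) were found for 6 of the 9 genes, with 7 promoters because Ifi203 had 2 starts. None was found for Zbp1, Dhx58 and Ifi204, which were also at least 2-fold higher with LPS under control siRNA. Those of Ifih1 and Eif2ak2 are shown because these were the genes at least 2-fold higher with LPS under control siRNA whose window held an ISRE match, and that of Aim2 because it came next by its LPS difference, did not reach 2-fold and held no match. Ifih1 lies at chr2:62646206-62646505 on the minus strand, Eif2ak2 at chr17:78882523-78882822 on the minus strand and Aim2 at chr1:173420354-173420653 on the plus strand. Capitals mark the ISRE match, which is GAAA, then 2 bases of any kind, then GAAA, searched on both strands.
Ifih1: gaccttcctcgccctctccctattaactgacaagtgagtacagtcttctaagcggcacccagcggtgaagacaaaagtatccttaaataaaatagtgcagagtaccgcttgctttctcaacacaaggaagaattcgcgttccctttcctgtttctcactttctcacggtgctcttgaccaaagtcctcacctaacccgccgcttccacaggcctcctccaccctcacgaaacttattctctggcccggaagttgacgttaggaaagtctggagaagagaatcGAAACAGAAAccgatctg
Eif2ak2: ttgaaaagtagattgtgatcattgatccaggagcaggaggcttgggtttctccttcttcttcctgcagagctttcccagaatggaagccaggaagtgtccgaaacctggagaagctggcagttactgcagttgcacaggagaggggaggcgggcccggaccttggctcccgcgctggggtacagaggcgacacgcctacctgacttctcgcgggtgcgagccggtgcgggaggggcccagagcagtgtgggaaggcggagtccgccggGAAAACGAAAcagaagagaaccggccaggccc
Aim2: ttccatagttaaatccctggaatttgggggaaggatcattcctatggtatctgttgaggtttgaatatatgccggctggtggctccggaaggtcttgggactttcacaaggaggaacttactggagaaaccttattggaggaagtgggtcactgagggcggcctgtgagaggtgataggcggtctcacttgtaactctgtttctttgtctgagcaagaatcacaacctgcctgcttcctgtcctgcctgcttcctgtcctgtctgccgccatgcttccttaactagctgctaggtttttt
Counted in bases with the first transcribed base as 0, the match began at position 32 in Ifih1 and at position 18 in Eif2ak2. The Ifi205 window held 2 matches, GAAATTGAAA at position -134 and, on the opposite strand, TTTCACTTTC at position 23. For Ifi203 the window of 1 of its 2 starts held GAAATCGAAA at position -35. In all, 4 of the 7 promoters held an ISRE match, against 3.44% of the 32851 promoters in the table (1131 promoters). Among the genes with a match, Ifi203 and Ifi205 have no LPS difference under control siRNA here. The gamma-activated sequence motif GAS, TTCNNNGAA, which is its own reverse complement, was in 1 of 7 (Eif2ak2, at position -178), against 8.30% of all promoters. The kappaB motif of the NF-kappaB factors was in 1 of 7, the other Ifi203 window, against 8.46% of all. No motif of the 3 was found in these windows of Aim2 or Mavs. These matches are letters in a window and not shown sites of binding.

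Every level below is a probe's processed signal in log2, less the 75th percentile of its array, so that 0 is the brightness of that percentile and a difference of 1 is 2-fold. Levels of different probes are not compared with each other. A difference of at least 1 is called, which is a size rule and not a test, because 1 array per group leaves no replicate error and no p-value. The technical SD quoted is that of a difference between spots of the same probe, from probes printed 10 times on an array, and it covers neither cultures nor labelling. It was taken by range of level, from 1071 pairs of such a probe and an array above 3 and from only 18 between -2 and 3. Between 54.12% and 55.03% of RNA spots were well above background, the 75th percentile signal ran from 330.8 to 456.3, and no spot was saturated. On the slide the Ruvbl2 siRNA arrays were in row 2 and the control siRNA arrays in row 1, so row and siRNA cannot be told apart. Of 9 macrophage markers, 8 passed background on all 4 arrays and Mertk on none. Their summed level (linear, relative to the 75th percentile) was 1179 with LPS and 1050 with DMSO in Ruvbl2 siRNA cells, against 1121 and 933.2 in control siRNA cells. Mast cell and epithelial markers had no member above background on all 4 arrays, and B cell and fibroblast markers 1 of 4 each. The T cell markers had 3 of 5, with a summed level of 3.30 and 3.98 in Ruvbl2 siRNA LPS and DMSO cells and of 3.33 and 3.70 in control siRNA LPS and DMSO cells. The dendritic cell markers had 1 of 4, Siglech, with a summed level of 152.1 and 156.6 against 119.7 and 155.0 in the same order. Their part in the results was not tested. In such bulk RNA, fewer cells with a transcript and less of it per cell cannot be told apart.

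The siRNA target itself was lower with its siRNA by less than 2-fold. Ruvbl2 stood at 4.51 with LPS and 4.67 with DMSO in Ruvbl2 siRNA cells, against 4.92 and 5.01 in control siRNA cells, which is a difference of -0.40 in LPS and -0.34 in DMSO. Among all genes this was the 1383rd lowest of 13470 in LPS and the 979th lowest of 13416 in DMSO, so many genes read lower by more. The dimmer of its 2 probes differed by -0.12 (technical SD 0.27) and -0.55 (technical SD 0.21), and Ruvbl1, the partner ATPase, by 0.14 and 0.00. All siRNA comparisons below therefore go by the siRNA given, with Ruvbl2 mRNA reading lower by less than 2-fold, and how far the target was reduced was not tested.

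**Figure D1:**
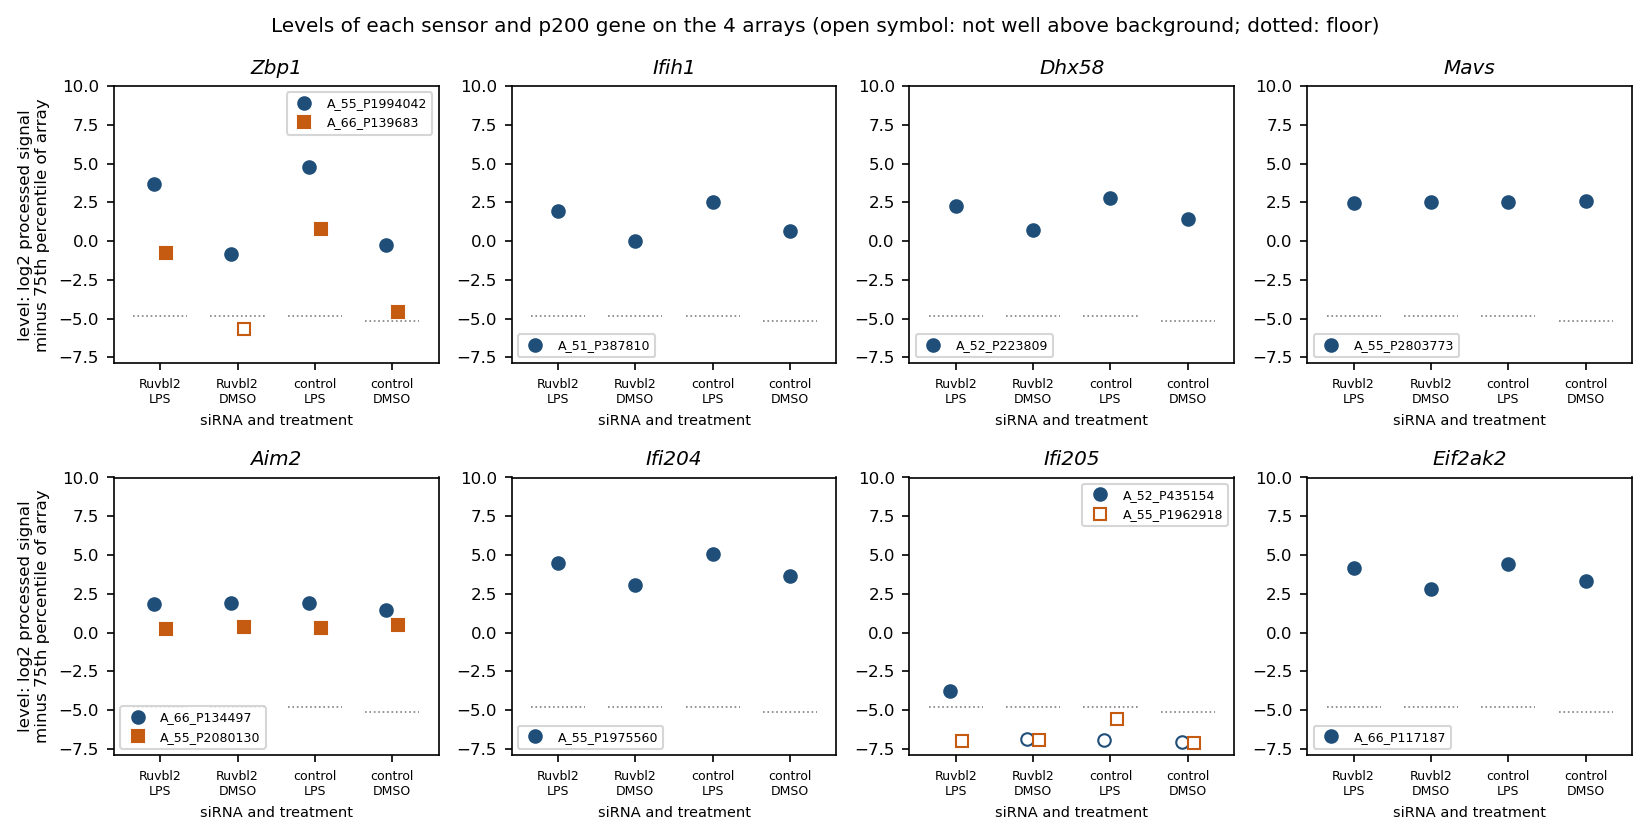
Level of each probe (log2 signal less the 75th percentile of the array, vertical axis) on the 4 arrays (horizontal axis: siRNA, with LPS or DMSO) for the 8 genes with a probe. Each point is 1 array, squares are a second probe, open symbols were not well above background, and the dotted line is the array's floor. Zbp1 spans 5.65 on the log2 scale and Mavs 0.15.

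Most of these genes read at least 2-fold higher with LPS than with DMSO, Zbp1 by far the most of them, while the adaptor Mavs and the DNA sensor Aim2 stayed short of 2-fold. With Ruvbl2 siRNA, 6 of the 8 genes compared were called higher and none lower, where 4.14% of all 13515 genes compared were called higher, 2.07% lower and 6.21% in either direction. With control siRNA, 5 of the 7 compared were called higher and none lower, against 5.74% higher, 2.21% lower and 7.95% in either direction among 13510 genes. The median difference over the genes was 1.40 with Ruvbl2 siRNA and 1.35 with control siRNA, where the median of all genes was -0.03 and 0.00. The gene that adds to the first count is Ifi205, a bound resting on 1 array.

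**Figure D2:**
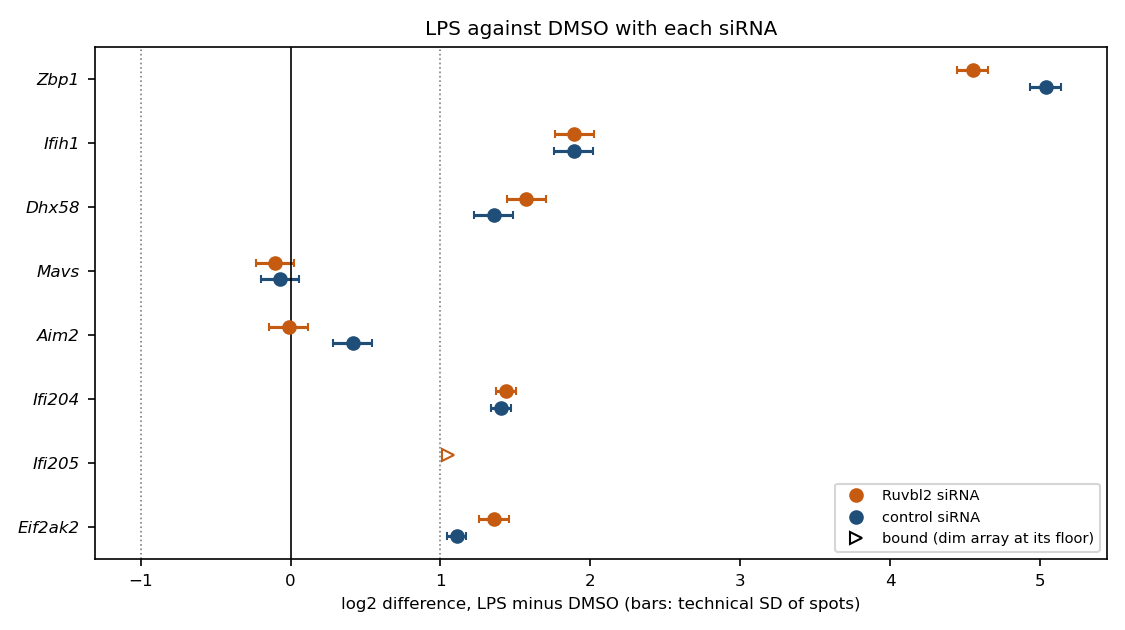
Difference of level, LPS minus DMSO (log2), for each gene in Ruvbl2 siRNA cells and in control siRNA cells, with the size rule of 1 drawn as a line and technical SD as bars. Zbp1 lies at 4.55 and 5.04, Ifih1, Dhx58, Ifi204 and Eif2ak2 between 1.11 and 1.89, and Mavs and Aim2 between -0.10 and 0.41.

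Zbp1, the sensor of Z-form nucleic acids, showed the widest span. Its brighter probe, A_55_P1994042, read 3.69 with LPS and -0.87 with DMSO in Ruvbl2 siRNA cells, against 4.79 and -0.25 in control siRNA cells. Both LPS arrays were high and both DMSO arrays low, and within each treatment the Ruvbl2 siRNA array was the lower. LPS minus DMSO was 4.55 (23.5-fold) with Ruvbl2 siRNA, the 19th highest of 13515 genes, and 5.04 (32.9-fold) with control siRNA, the 22nd highest of 13510. The technical SD of either was 0.10. The dimmer probe, A_66_P139683, read -0.76 with LPS and -5.66 with DMSO in Ruvbl2 siRNA cells, against 0.75 and -4.57 in control siRNA cells, and was not well above background at -5.66. By that probe LPS was at least 16.9-fold higher than DMSO with Ruvbl2 siRNA and 40.0-fold higher with control siRNA.

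The RIG-I-like receptors were higher with LPS in cells of either siRNA. Ifih1, the receptor for long double-stranded RNA, read 1.92 with LPS and 0.03 with DMSO in Ruvbl2 siRNA cells, against 2.51 and 0.62 in control siRNA cells. LPS minus DMSO came to 1.89 with each siRNA (3.72-fold with Ruvbl2 siRNA and 3.70-fold with control siRNA, technical SD 0.13). Dhx58, the receptor without signalling domains of its own, read 2.27 and 0.69 in Ruvbl2 siRNA LPS and DMSO cells, against 2.79 and 1.44 in control siRNA LPS and DMSO cells. That was 2.97-fold with Ruvbl2 siRNA and 2.56-fold with control siRNA. For both receptors the 2 LPS arrays lay above the 2 DMSO arrays.

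Mavs, the adaptor through which IFIH1 signals, varied little. It read 2.43 with LPS and 2.54 with DMSO in Ruvbl2 siRNA cells, against 2.51 and 2.58 in control siRNA cells. Its 4 levels spanned 0.15, and no step between neighbouring levels exceeded 2 technical SDs. The LPS difference was -0.10 with Ruvbl2 siRNA and -0.07 with control siRNA, and its sign turned with spike-in scaling (0.26 and 0.00).

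Eif2ak2, the kinase that phosphorylates the translation factor eIF2-alpha, read 4.15 with LPS and 2.79 with DMSO in Ruvbl2 siRNA cells, against 4.41 and 3.30 in control siRNA cells. LPS was 2.56-fold higher than DMSO with Ruvbl2 siRNA and 2.16-fold higher with control siRNA, with LPS arrays above DMSO arrays throughout.

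Among the p200 genes the members went different ways. Ifi204, an interferon-inducible DNA-binding protein of the nucleus and cytosol, read 4.51 with LPS and 3.07 with DMSO in Ruvbl2 siRNA cells, against 5.05 and 3.64 in control siRNA cells. It was 2.71-fold higher with LPS under Ruvbl2 siRNA and 2.65-fold higher under control siRNA (log2 1.44 and 1.40, technical SD 0.06). Aim2 read 1.87 with LPS and 1.88 with DMSO in Ruvbl2 siRNA cells, against 1.89 and 1.48 in control siRNA cells, by its brighter probe A_66_P134497. Only the control siRNA DMSO array was apart, 0.39 below the nearest other, and LPS minus DMSO was -0.01 with Ruvbl2 siRNA and 0.41 with control siRNA. The dimmer Aim2 probe, A_55_P2080130, read 0.20, 0.33, 0.30 and 0.46 in the same order and gave -0.12 and -0.16. The 2 Aim2 probes thus differed in the sign of the control siRNA difference, and neither reached the size rule.

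Ifi205, a p200 protein with a pyrin domain, was at or below detection. Probe A_52_P435154 passed background in Ruvbl2 siRNA cells with LPS alone, at -3.78, against -6.84 with Ruvbl2 siRNA and DMSO, -6.96 with control siRNA and LPS and -7.08 with control siRNA and DMSO. Against the floor of the dim arrays this is at least 2.07-fold higher in LPS than in DMSO under Ruvbl2 siRNA, and at least 2.07-fold higher with Ruvbl2 siRNA than with control siRNA in LPS. The second probe, A_55_P1962918, was not well above background on any array (-6.99, -6.96, -5.57 and -7.11 in the order Ruvbl2 siRNA LPS, Ruvbl2 siRNA DMSO, control siRNA LPS, control siRNA DMSO), and its highest value was on another array. With normexp background correction and quantile normalization the probe fell short of the size rule in both comparisons (0.25 and 0.16). The p200 genes are close relatives in a single cluster, and the sources used here hold no probe sequences, so hybridization of a probe to a neighbour's transcript was not tested.

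Ruvbl2 siRNA cells had lower levels of most of these genes than control siRNA cells, by less than 2-fold except for Zbp1 in LPS. In LPS, 7 of the 8 genes compared were below 0 and the median difference was -0.39, where 49.2% of all 13470 genes lay below 0, the median of all was 0.00 and the 2.5th and 97.5th percentiles were -0.81 and 0.70. By the size rule, 1 of the 8 (Zbp1) was called lower and 1 (the Ifi205 bound) higher, while 1.46% of all genes were called lower, 1.06% higher and 2.52% in either direction. In DMSO, 6 of 7 were below 0 with a median of -0.57, where 42.4% of 13416 genes lay below 0, the median of all was 0.04 and the 2.5th and 97.5th percentiles were -0.58 and 0.71. No gene of the 7 was called there, against 1.55% of all genes (1.01% higher and 0.537% lower). LPS and DMSO comparisons of the siRNAs use separate arrays, but each array also enters an LPS comparison above, so the values are not independent of those.

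**Figure D3:**
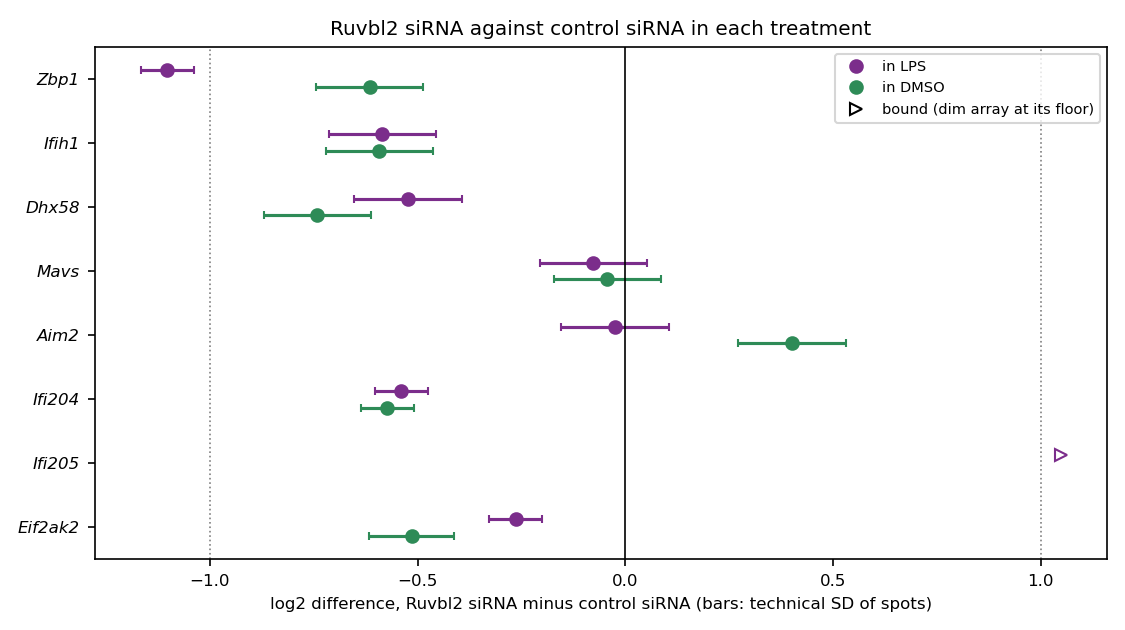
Difference of level, Ruvbl2 siRNA minus control siRNA (log2), for each gene in LPS and in DMSO, with the size rule drawn as lines and technical SD as bars. Zbp1 in LPS (-1.10) and the Ifi205 bound (1.05) pass it, and Ifih1, Dhx58 and Ifi204 lie between -0.74 and -0.52 in both treatments.

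Zbp1 was 2.15-fold lower with Ruvbl2 siRNA in LPS (difference -1.10, technical SD 0.06), the 160th lowest of 13470 genes. Its dimmer probe was 2.85-fold lower (-1.51, technical SD 0.13). In DMSO the brighter probe differed by -0.62, and the dimmer gave a bound of -0.26 because it was not well above background with Ruvbl2 siRNA. Ifih1 differed by -0.59 in LPS and -0.59 in DMSO, and Ifi204 by -0.54 and -0.57. Dhx58 differed by -0.52 in LPS and by -0.74 in DMSO, the 176th lowest of 13416 genes. Eif2ak2 differed by -0.26 in LPS and -0.51 in DMSO. By the brighter probe these differences were at least 4.06 technical SDs in size, yet of them only that of Zbp1 in LPS reached 2-fold. Mavs differed by -0.08 and -0.04, within 1 technical SD. Aim2 differed by -0.02 in LPS and 0.40 in DMSO by the brighter probe and by -0.10 and -0.13 by the dimmer.

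Zbp1, Ifih1, Dhx58, Ifi204 and Eif2ak2 therefore shared 1 order of the arrays, from high to low: control siRNA with LPS, Ruvbl2 siRNA with LPS, control siRNA with DMSO and Ruvbl2 siRNA with DMSO. All 3 steps of that order exceeded 2 technical SDs in each of these 5 genes. Scaling on the spike-ins moves every siRNA difference in DMSO down by the same amount, and the median of all genes became -0.26 in place of 0.04. Mavs then read -0.35 in place of -0.04, and Dhx58 passed the size rule, at -1.04 in place of -0.74.

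**Figure D4:**
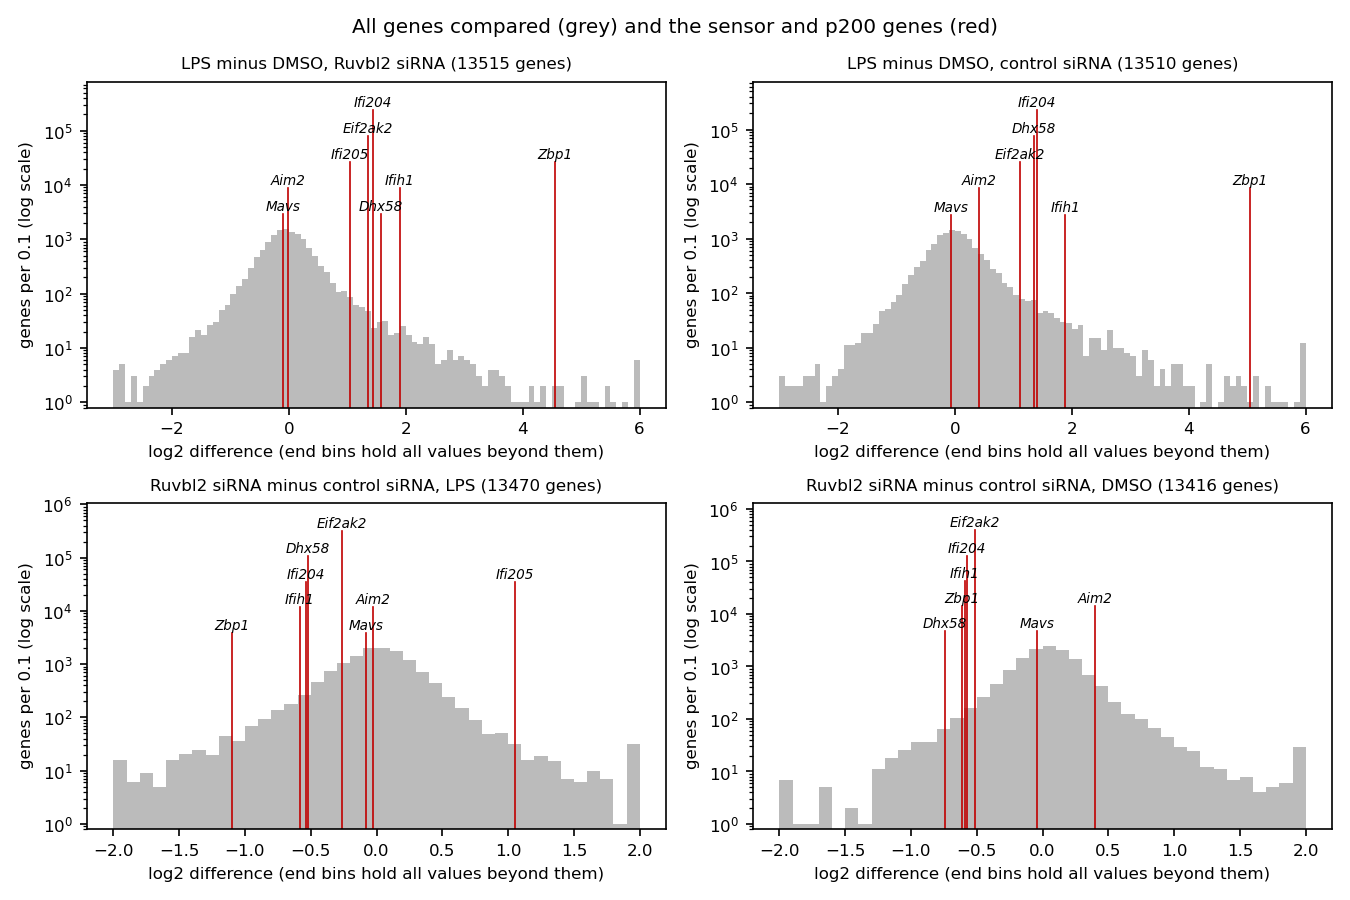
Histograms of the log2 difference of all genes compared (grey, number of genes per 0.1 on a log axis) for LPS minus DMSO in Ruvbl2 siRNA and in control siRNA cells (top) and for Ruvbl2 siRNA minus control siRNA in LPS and in DMSO (bottom), with the sensor and p200 genes as red lines. In DMSO, 5 of the 7 lie at -0.51 or lower, beside an all-gene 2.5th percentile of -0.58.

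The LPS response in Ruvbl2 siRNA cells was set against that in control siRNA cells by the difference of the 2 LPS differences, over genes well above background on all 4 arrays. No gene of the 7 reached the size rule, and 1.69% of 12469 genes did (0.513% higher and 1.18% lower). The values were -0.49 for Zbp1, -0.43 for Aim2 (0.04 by its dimmer probe), -0.03 for Mavs, 0.01 for Ifih1, 0.03 for Ifi204, 0.22 for Dhx58 and 0.25 for Eif2ak2. Their median was 0.01 and that of all genes -0.03. The technical SD of such a value was 0.14 for Zbp1, 0.18 for Ifih1, Dhx58, Mavs and Aim2, 0.09 for Ifi204 and 0.12 for Eif2ak2. With spike-in scaling the median of the 7 was 0.30 and that of all genes 0.26. Zbp1 was then at -0.19, Dhx58 at 0.51 and Eif2ak2 at 0.55, and no gene of the 7 reached the size rule.

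The genes most like each member were those whose 4 levels, each centred on its own mean, lay nearest by Euclidean distance among 11625 genes well above background on all 4 arrays. For Zbp1 they were Acod1, the itaconate-forming enzyme (distance 0.43), Scimp, a transmembrane adaptor of Toll-like receptor signalling (0.46), and Nos2, the inducible nitric oxide synthase (0.51). No other member lay within 2.93 of it. For Ifih1 they were Mlkl, the effector of necroptosis (0.14), the receptor Cd40 (0.15) and Bst2, or tetherin, which holds budding virus on the cell (0.16). For Dhx58 they were Phf11c (0.07), Phf11d (0.15) and Phf11a (0.18), and the member Ifi204 lay at 0.13. For Ifi204 they included Ttc39b (0.06) and the stress-inducible Gadd45b (0.13). For Eif2ak2 they were Ifi47, an interferon-inducible GTPase (0.05), Klhl41 (0.09) and Nod2, a sensor of bacterial cell wall fragments (0.10). The flat profile of Mavs was nearest to those of Atg16l1, Mrps24 and Imp3, at 0.01 to 0.02, and that of Aim2 to Rad54l2, Prune2 and Ccdc9b, at 0.01 to 0.02. Each distance is over 4 arrays and describes them alone.

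Most other genes of the RIG-I and MAVS pathway differed by less than 2-fold between LPS and DMSO. Of 22 compared, 5 were called higher with LPS and none lower under Ruvbl2 siRNA, and likewise 5 and 0 under control siRNA, with medians of 0.21 and 0.18. Among all genes, 4.14% were called higher under Ruvbl2 siRNA and 5.74% under control siRNA. Irf7, the master factor of interferon gene transcription, was 8.82-fold higher with LPS under Ruvbl2 siRNA and 5.74-fold higher under control siRNA. Ddx60, a helicase that promotes signalling by RIG-I-like receptors, was 5.10-fold and 4.17-fold higher. It was dim, at -2.32 with LPS and -4.68 with DMSO in Ruvbl2 siRNA cells, against -1.86 and -3.92 in control siRNA cells. The floor of the Ruvbl2 siRNA DMSO array was -4.83. With a level of at least -2 on the brighter array, Ddx60 was not called under Ruvbl2 siRNA, which left 4 genes called there. With Ruvbl2 siRNA against control siRNA no gene of the 22 was called in LPS (median -0.02), and 1 was called lower with the mean of probes. Irf7 alone was called in DMSO, 2.28-fold lower (median -0.04). The shares of all genes called in either direction were 2.52% in LPS and 1.55% in DMSO.

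The remaining p200 genes gave 4 with a comparison out of 6 on the array. Ifi202b, a p200 protein without a pyrin domain, read 4.24 with LPS and 0.42 with DMSO in Ruvbl2 siRNA cells, against 5.14 and 1.41 in control siRNA cells, and was 14.1-fold and 13.3-fold higher with LPS. Ifi209 was at least 12.7-fold higher with LPS under Ruvbl2 siRNA and 20.3-fold higher under control siRNA, and 2.57-fold lower with Ruvbl2 siRNA than with control siRNA in LPS. Its DMSO levels were low, at -5.81 with Ruvbl2 siRNA and -4.15 with control siRNA. With normexp the list medians for LPS were 1.14 under Ruvbl2 siRNA and 1.43 under control siRNA, in place of 2.12 and 2.06. With Ruvbl2 siRNA 3 of the 4 were below 0 in LPS (median -0.66) and in DMSO (median -0.64), where 49.2% and 42.4% of all genes lay below 0. In DMSO none of the 4 was called, while with spike-in scaling 1 was called lower and the median was -0.95.

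**Figure D5:**
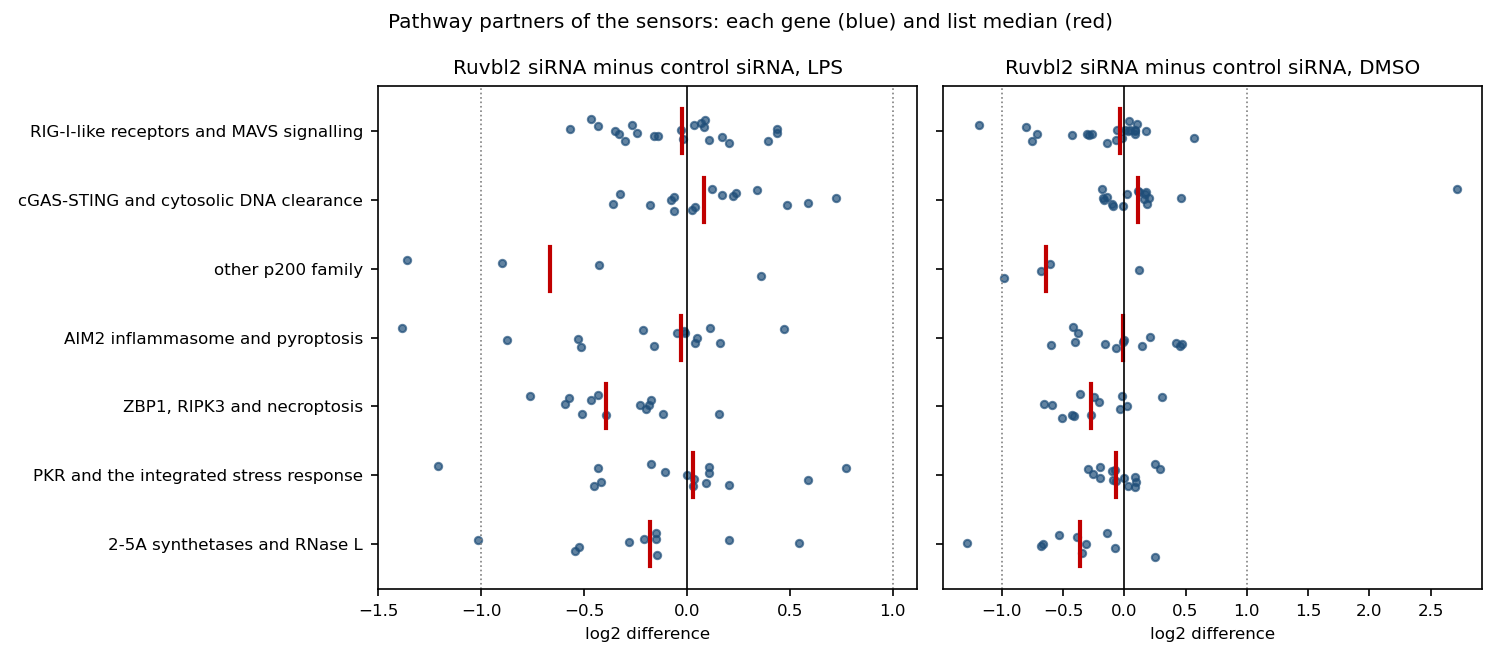
Difference of level, Ruvbl2 siRNA minus control siRNA (log2, horizontal axis), of each gene (points) of the 7 pathway lists (rows) in LPS and in DMSO, with list medians as red bars and the size rule as dotted lines. The other p200 genes have medians of -0.66 and -0.64, the ZBP1 partners -0.39 and -0.27 and the 2-5A synthetases -0.18 and -0.36, while the other lists lie between -0.07 and 0.11.

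The 2-5A synthetases make the short oligoadenylates that switch on RNase L. Of 10 genes of this system compared, 6 were called higher with LPS under Ruvbl2 siRNA and 5 under control siRNA, and none lower (medians 1.06 and 0.79). The shares of all genes called higher were 4.14% and 5.74%. Oasl2, a synthetase-like protein, was 10.3-fold higher with LPS under Ruvbl2 siRNA and 8.56-fold higher under control siRNA. Oasl2 was also the gene of the list called lower with Ruvbl2 siRNA, 2.02-fold in LPS and 2.44-fold in DMSO, and both of those calls were lost with normexp correction. With Ruvbl2 siRNA 8 of the 10 were below 0 in LPS (median -0.18) and 9 of 10 in DMSO (median -0.36). Of all genes, 49.2% and 42.4% lay below 0.

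Of 13 partners of ZBP1 in RIPK3 signalling and necroptosis, 2 were called higher with LPS under either siRNA and none lower (medians 0.07 under Ruvbl2 siRNA and 0.24 under control siRNA). Of all genes, 4.14% and 5.74% were called higher. Mlkl was 3.63-fold and 4.12-fold higher, and Trim34a 2.47-fold and 2.05-fold. Ripk3, the kinase that ZBP1 binds, differed by 0.03 and 0.22. With Ruvbl2 siRNA 12 of the 13 were below 0 in LPS and 11 in DMSO, with medians of -0.39 and -0.27, where 49.2% and 42.4% of all genes lay below 0. None of the 13 was called in either treatment, against 2.52% of all genes in LPS and 1.55% in DMSO. With the mean of probes 10 of the 13 were below 0 in each treatment, with medians of -0.19 in LPS and -0.25 in DMSO.

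Around AIM2, 14 genes of the inflammasome and of pyroptosis were compared for LPS, and 3 were called higher under each siRNA and none lower (medians 0.32 under Ruvbl2 siRNA and 0.47 under control siRNA). The shares of all genes called higher were 4.14% and 5.74%. With normexp correction 2 were called higher under each siRNA, and with quantile normalization 2 under control siRNA. Under Ruvbl2 siRNA the count was 4 with spike-in scaling and 2 with a level of at least -2 on the brighter array. Il1b, the cytokine that caspase-1 matures, was at least 73.3-fold higher with LPS under Ruvbl2 siRNA. Under control siRNA it read 2.75 with LPS and -5.12 with DMSO, where it was not well above background, and no fold is given. Casp4, the mouse caspase-11 gene, was 2.53-fold higher under Ruvbl2 siRNA and 4.21-fold higher under control siRNA. Pycard, the adaptor that joins AIM2 to caspase-1, differed by 0.07 and 0.01. With Ruvbl2 siRNA, Il1b alone of 14 genes was called in LPS (2.61-fold lower) and none of 13 in DMSO, with medians of -0.03 and -0.01. Among all genes, 2.52% were called in either direction in LPS and 1.55% in DMSO.

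The DNA sensing route through cGAS and STING runs beside AIM2. For LPS, 1 gene of the list made for this route and for DNA clearance was called under Ruvbl2 siRNA and 1 under control siRNA. This is near the share of all genes called in either direction, 6.21% and 7.95%. Of the genes listed, 17 were compared under Ruvbl2 siRNA and 16 under control siRNA for LPS, with medians of -0.02 and 0.01. With spike-in scaling the median under Ruvbl2 siRNA was 0.35, with 16 of 17 above 0 and 2 called higher. The 1 gene called under control siRNA was Zc3h12a, listed here though a ribonuclease of inflammatory messages. It was 2.82-fold higher with LPS and dim, at -1.81 with LPS and -3.30 with DMSO in control siRNA cells. Enpp1, which degrades cGAMP, passed background in Ruvbl2 siRNA cells with DMSO alone, which makes it at least 5.21-fold lower in LPS than in DMSO under Ruvbl2 siRNA and at least 6.59-fold higher with Ruvbl2 siRNA than with control siRNA in DMSO. With normexp correction no gene of this list was called in these comparisons. Cgas itself differed by 0.13 and -0.20 for LPS under Ruvbl2 and control siRNA, and Sting1 by 0.43 and 0.61. With Ruvbl2 siRNA the list median was 0.08 in LPS and 0.11 in DMSO, and the DMSO median turned to -0.19 with spike-in scaling.

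Of 15 genes around PKR and the integrated stress response, none was called with LPS under Ruvbl2 siRNA, where 6.21% of all genes were. Under control siRNA, where 7.95% of all genes were called, Ddit3, the stress factor CHOP, was 3.42-fold higher. Dnajc3, an inhibitor of PKR, was 2.53-fold lower there. The list medians were 0.10 under Ruvbl2 siRNA and 0.04 under control siRNA. With spike-in scaling 1 gene was called higher under Ruvbl2 siRNA too, so that contrast depends on the scaling. With Ruvbl2 siRNA, Ddit3 alone of the 15 was called in LPS, 2.31-fold lower, where 2.52% of all genes were called in either direction. No gene of the 15 was called in DMSO, against 1.55% of all genes. Ddit3 was also the gene of this list whose LPS differences differed past the size rule (-1.14), where 1.69% of all genes did. With spike-in scaling that call was lost and 1 other gene was called in the opposite direction. Atf4, which drives Ddit3, differed by -0.42 with Ruvbl2 siRNA in LPS and 0.00 in DMSO.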

How the data were processed

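RNA of 4 RAW264.7 samples was hybridized in 1 colour, 1 array per group. Per the file headers, what the authors deposited is the intensity of each spot as Agilent Feature Extraction 11.5.1.1 wrote it (version 11.0 in the submitters' processing notes), with background subtracted, linear and without scaling across arrays. The series' own value table was identical to it at all 62976 spots of each array. Population outlier spots and control spots were left out, spots of a probe were averaged, and the level is log2 signal less the 75th percentile over the RNA probes of that array. Probes were named by RefSeq accession through a mouse gene table (32989 of 56605 probes), and each gene was read from its probe with the highest mean level. A difference was computed for genes that the scanner software called well above background on both arrays. Where only the brighter array passed, the dim value was raised to the floor if it lay under it, the floor being the dimmest probe level that passed background on that array. A value that then rests on the floor is given as "at least". The size rule was 1 on the log2 scale.

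Alternatives were normexp (offset 50; median signals, since no mean signal is in the files) with quantile normalization, quantiles without normexp, centring on probes well above background, scaling on 7 E1A spike-in probes, the mean of a gene's probes, the deposited value table, and a level of at least -2 on the brighter array. The calling step was tested on simulated data. Python 3.11.15, numpy 2.4.6, pandas 2.3.3, R 4.3.3 and limma 3.58.1 were used. The genes named were the 9 members with every probe, Ruvbl2 and Ruvbl1, up to 2 called genes per direction, list and comparison, and the 3 nearest profiles per member, of which 1 is not reported here. Ripk3, Pycard, Cgas, Sting1 and Atf4 were added as direct partners of members after their values were seen. The members and lists were chosen with earlier results of these data known. Precision is limited by having 1 array per group.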

Additional observations from a re-analysis of the deposited data

Results flagged for a closer look

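Aim2 was the gene whose siRNA and LPS differences had opposite signs in the 2 settings compared, by its brighter probe. LPS minus DMSO was -0.01 with Ruvbl2 siRNA and 0.41 with control siRNA, and Ruvbl2 siRNA minus control siRNA was -0.02 in LPS and 0.40 in DMSO. The technical SD of each was 0.13, so that neither negative value differs from 0 by more than that error. With normexp correction the negative values were 0.05 for LPS and 0.08 for the siRNA, and with spike-in scaling the LPS value was 0.36, so the opposite signs did not hold under normexp. The difference was not tested, since each group is 1 array. Both contrasts share the control siRNA DMSO array, which read 1.48 where the other 3 arrays read 1.87 to 1.89. The dimmer Aim2 probe gave -0.12 and -0.16 for LPS and -0.10 and -0.13 for the siRNA, with no change of sign.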

How the results depend on the processing

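The count of genes called with LPS was 5 with control siRNA under every alternative run, and with Ruvbl2 siRNA it was 5 in place of 6 with normexp correction and with the brighter array at a level of at least -2, because Ifi205 was then not called (0.25 with normexp). For Ruvbl2 siRNA against control siRNA in LPS, the count was 1 in place of 2 with normexp and 1 with the minimum level, again without Ifi205 (0.16 with normexp), while Zbp1 stayed called in all settings. In DMSO it was 1 in place of 0 with spike-in scaling, through Dhx58 (-1.04). The quantile and centring alternatives left all 37 member differences within the technical SD. The value table could not give other values, being identical to the signals used. Of the 37, 23 moved past the technical SD with spike-ins, 8 with normexp and 7 with the mean of probes. No called difference changed sign. Signs turned only in uncalled values, of Mavs, Aim2 and Ifih1, such as Aim2 with Ruvbl2 siRNA in LPS (0.08 with normexp). With spike-in scaling the all-gene median became 0.34 for LPS with Ruvbl2 siRNA, -0.26 for the siRNA in DMSO and 0.26 for the difference of LPS effects. Over all genes it gave 69 higher and 212 lower for the siRNA in DMSO (136 and 72 with the 75th percentile), 1103 and 120 for LPS with Ruvbl2 siRNA (559 and 280) and 227 and 61 for the difference of LPS effects (64 and 147). Normexp gave 298 and 116 for LPS with Ruvbl2 siRNA, 450 and 150 for LPS with control siRNA (776 and 298), 24 and 71 for the siRNA in LPS (143 and 197), 14 and 25 for it in DMSO and 14 and 51 for the difference of LPS effects. The minimum level gave 366 and 160 for LPS with Ruvbl2 siRNA, 41 and 112 for the siRNA in LPS, 26 and 34 for it in DMSO, and 35 and 96 for the difference of LPS effects. Among the pathway lists, the RIG-I and MAVS genes higher with LPS numbered 3 in place of 5 under each siRNA with normexp, and those lower with Ruvbl2 siRNA in DMSO 4 in place of 1 with spike-ins and 3 with the mean of probes. The ZBP1 partners higher with LPS numbered 1 in place of 2 with normexp and with the minimum level, and the Enpp1 calls were absent with both. No paired analysis was possible because each group is 1 array. The cause of these changes was not tested. Below a level of -4 the technical SD of a difference is 0.59 to 0.69. This limits what probes read there can show, such as those of Ifi205, Ifi209, Ddx60 and the dimmer one of Zbp1.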
